A study of Mus musculus with 16 samples.

Results

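RBM45 knockout cells that had been given back a tagged RBM45 were compared with the RBM45 knockout clone that lay nearest to them in overall expression, and the genes and exons that changed the same way in both rescue clones were kept. The members were 58 of 16223 genes tested, 46 higher and 12 lower in the rescue clones, and 1 of 101929 exon bins tested. They were selected on the measured values of this comparison: in each rescue clone against KO clone 2 a member had an adjusted p under 0.05 and the same sign (quasi-likelihood test of edgeR for genes and its diffSpliceDGE for bins, Benjamini-Hochberg adjustment over all genes or all bins). By that rule 0.358% of genes and 0.000981% of exon bins were members. These shares, and the values of the members in the 6 libraries compared, are a description of the choice and carry no test.

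All cells were mHiPPoE-2, a transformed mouse hippocampal neuron line, grown without treatment, and total RNA depleted of ribosomal RNA was sequenced from 16 libraries, 2 for each of 8 lines. The 2 rescue clones, called m2 and m3 here, were isogenic isolates with a Cas9-guided RBM45 KO plus an F-HA-tagged RBM45_mut[delta]gRNA, so they carried the same kind of knockout as their comparator. RBM45 KO clone 2 and RBM45 KO clone 1 were isolates of the Cas9-guided RBM45 KO without the tagged copy. The other lines were 2 Cas9 control clones that had received no gRNA, called e1 and e4, a Cas9-guided METTL3 KO isolate and the unedited wild type (WT). Each line is 1 clone or culture, so the replicate libraries measure the spread within a clone, which may be technical, and not the spread between clones of a genotype. From which knockout clone the rescue clones were derived is not given in the sources used here. The column names of the 2 control clones match no label and were assigned by exclusion, every other column having a label that fits it. Over all genes tested, the root mean square log2 distance of m2 and m3 was 0.338 and 0.362 from KO clone 2, 0.629 and 0.653 from KO clone 1, and 0.335 from each other.

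RBM45 is an RNA-binding protein with several RNA recognition motifs that is abundant in the developing nervous system and is found in protein inclusions in some neurodegenerative diseases. Ide encodes insulin-degrading enzyme, a zinc metallopeptidase that cleaves insulin, amyloid beta and other small peptides. An exon inside an intron can be left out of the mature RNA or be used as an early last exon, and in that case the transcript ends before the later coding exons.

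The 1 member among exon bins was such an exon of Ide. The bin covers chr19:37301663-37303649 of GRCm38 on the minus strand and makes up 1987 bases of the last exon of Ide-203, an annotated transcript without a coding sequence (exon from 37301663 to 37303678). It lies in the intron after exon 11 of the 24 annotated exons of the protein-coding transcript Ide-201. Both transcripts share the exon at 37303894 to 37303996, and they part at its 3′ end. The 2 annotated junctions are shown because the exon bins beyond them differed between the cell lines. Fragments that span the junctions were not counted, so the choice between them was not measured. Small letters are the last 30 bases of the shared exon. Capitals are the first 30 bases of the exon joined to it (GENCODE mouse release 21).
Ide-201: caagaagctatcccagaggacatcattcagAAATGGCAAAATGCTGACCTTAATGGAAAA
Ide-203: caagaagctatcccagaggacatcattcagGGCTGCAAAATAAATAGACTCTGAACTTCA
When the reading frame of Ide-201 is carried across the second junction, the first stop codon, TGA, falls at bases 22 to 24 of the alternative exon. Ide-203 itself is annotated as non-coding, and no protein was measured.

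The alternative Ide exon held fewer fragments in the rescue clones. It had 6.71 and 7.73 CPM (fragments scaled to library size, using the TMM-scaled total of the gene table) in the 2 libraries of KO clone 2, from 80 and 102 fragments. It had 2.65 and 2.22 CPM in m2, from 48 and 28 fragments, and 2.08 and 2.37 CPM in m3, from 31 and 37 fragments. All 4 rescue libraries lay below both KO clone 2 libraries. Relative to the rest of the gene the bin was lower by a log2 change of -2.50 in m2 and -2.72 in m3. The 4 control libraries were lower still, at 0.623 and 0.418 CPM in e1 and 0.696 and 0.475 CPM in e4, and KO clone 1 stood at 5.92 and 7.94 CPM. The rescue libraries thus lay between the knockout and the control libraries, overlapping neither. WT had 0.432 and 0.0999 CPM and METTL3 KO had 0.900 and 0.853 CPM. The 215 bases directly after the shared exon, before the alternative exon, averaged 0.669 CPM in KO clone 2, from 6 and 11 fragments. They averaged 0.217 CPM in the rescue clones and 0.0601 in the controls. Per base these means were close to those of the much longer alternative bin in each group. A fragment can be counted in neighbouring bins too, and whether these fragments ran on from the shared exon was not tested.

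The coding exons of Ide on the far side of this exon changed in the other direction. The 13 coding bins before the alternative exon summed to 15.2 and 14.3 CPM in KO clone 2, to 23.9 and 19.9 in m2 and to 23.3 and 24.2 in m3. The 12 coding bins after it summed to 4.70 and 2.73 CPM in KO clone 2, to 21.7 and 18.3 in m2 and to 18.7 and 23.3 in m3. Per base, the later exons therefore stood at 0.251 ± 0.0844 of the earlier ones in KO clone 2 (SD, n = 2), at 0.900 ± 0.0664 in the rescue clones (SD, n = 4 libraries of 2 clones) and at 1.02 ± 0.104 in the controls (SD, n = 4 libraries of 2 clones). The ratio in KO clone 1 was 0.290 ± 0.0283 (SD, n = 2). Per base the alternative bin stood at 35.5% ± 4.99 of the earlier coding bins in KO clone 2 (SD, n = 2), at 7.40% ± 0.776 in the rescue clones (SD, n = 4) and at 1.13% ± 0.218 in the controls (SD, n = 4). Levels before the exon also differed: the earlier coding bins averaged 22.8 ± 1.98 CPM in the rescue clones and 35.2 ± 3.01 in the controls (SD, n = 4 each), and these 2 groups did not overlap.

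**Figure D1:**
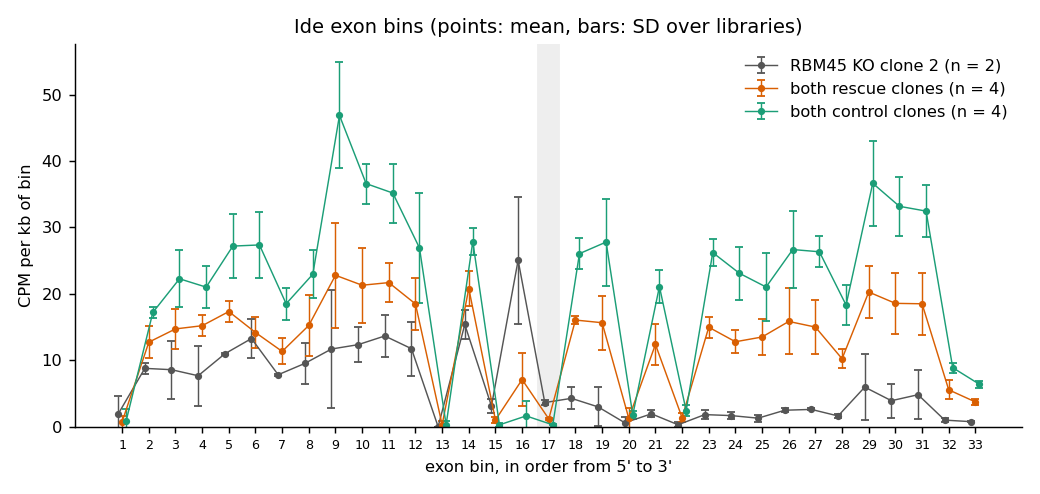
CPM per kb of bin for 33 of the 35 exon bins of Ide (those of at least 20 bases), numbered from 5′ to 3′, as mean and SD of KO clone 2 (2 libraries), both rescue clones (4) and both control clones (4); the shaded bin 17 is the alternative exon. After it the KO clone 2 line stays near the axis, while the rescue line returns to about its earlier height, with a later to earlier ratio of 0.900 against 0.251.

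Over the whole gene body, Ide (chromosome 19, 37268743 to 37337852) had 23.7 and 21.7 CPM in KO clone 2, 41.8 and 38.0 in m2 and 41.4 and 39.9 in m3. The log2 change was 0.81 (SE 0.12) in m2 and 0.84 (SE 0.12) in m3. The controls had 55.9 ± 3.68 CPM (SD, n = 4), so the rescue libraries lay above KO clone 2 and below every control library. The intron row that holds the alternative exon averaged 7.95 ± 0.561 CPM in KO clone 2 and 2.70 ± 0.300 in the rescue clones, and the 22 other intron rows of Ide summed to 3.70 ± 0.0179 and 8.15 ± 1.16 CPM (SD, n = 2 and 4). Outside that row, intron fragments of Ide were thus higher in the rescue clones, without overlap.

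Rbm45 (chromosome 2, 76369984 to 76383768) checks the labels of the rescue clones. It had 5.70 and 8.04 CPM in KO clone 2, 25.9 and 22.3 in m2 and 21.1 and 23.3 in m3, a log2 change of 1.81 (SE 0.18) and 1.68 (SE 0.18). All 4 rescue libraries lay above both KO clone 2 libraries and above the control libraries, which ran from 12.8 to 16.7 CPM. The 7 bins of coding sequence alone, 938 bases, summed to 4.53 and 8.72 CPM in KO clone 2, to 32.4 and 27.4 in m2 and to 24.0 and 29.2 in m3. The bin that holds only 3′ untranslated sequence, 314 bases at 76383455 to 76383768, did not follow: it had 0.587 and 0.531 CPM in KO clone 2, 0.386 and 0.635 in m2 and 0.469 and 0.641 in m3, so the groups overlapped. In the controls that bin had 1.63 ± 0.391 CPM (SD, n = 4). The 9 intron rows of Rbm45 summed to 2.70 ± 0.258 CPM in KO clone 2 and 4.24 ± 0.799 in the rescue clones (SD, n = 2 and 4). Higher counts over the coding exons were thus not matched over the last bin of the native gene. In bulk RNA, a lower level in every cell and a normal level in fewer cells cannot be told apart. KO clone 2 still had fragments over every Rbm45 exon, and RNA counts do not show whether protein was made.

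**Figure D2:**
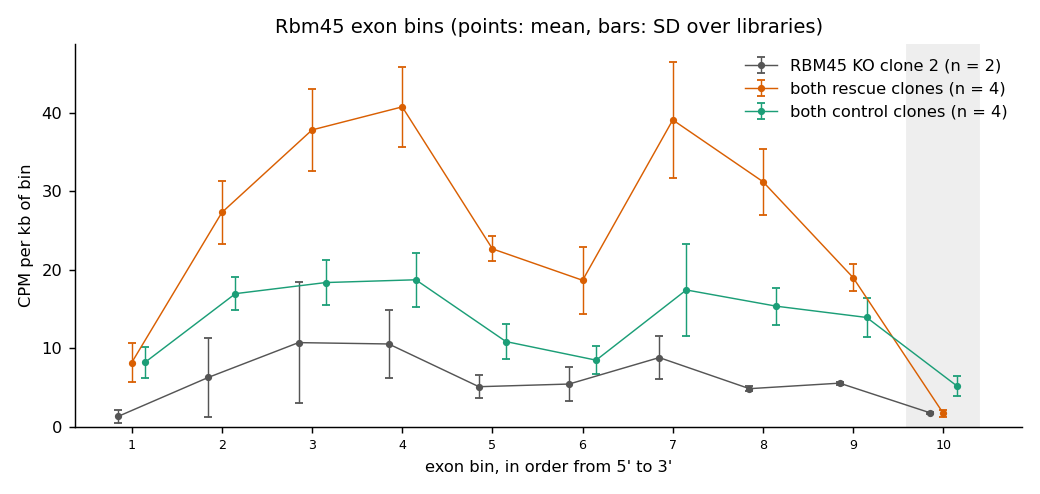
CPM per kb of bin for the 10 exon bins of Rbm45, numbered from 5′ to 3′, as mean and SD of KO clone 2 (2 libraries), both rescue clones (4) and both control clones (4). In bins 2 to 9 the rescue line lies above both others, and in the shaded last bin, which holds only 3′ untranslated sequence, the rescue clones (0.533 CPM over the bin) meet KO clone 2 (0.559 CPM).

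The members are described by known role, a grouping chosen after their values were seen that shows no enrichment of any role. Of the 46 that were higher, some act at synapses, in ion transport or at the membrane, while a list of synapse and channel genes held 2 members among 24 tested. Kcnn2, a calcium-activated potassium channel, had 4.28 and 4.85 CPM in KO clone 2 against 15.6 and 13.4 in m2 and 16.2 and 10.8 in m3. Pex5l, a partner protein of HCN channels, had 34.4 and 34.6 CPM in KO clone 2 against 101 and 88.3 in m2 and 151 and 91.6 in m3. In both genes the rescue libraries lay above KO clone 2 without overlap. Ank2, an ankyrin that anchors membrane proteins, Dlgap1, a postsynaptic scaffold protein, Slc8a1, a sodium-calcium exchanger, and Syndig1, a synaptic membrane protein, were also higher, by 1.11, 1.42, 0.83 and 0.83 on the log2 scale in m2 and by 1.40, 0.74, 1.24 and 0.66 in m3, in that order.

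Some of the 46 make or modify secreted and matrix proteins, while a list of collagens and matrix genes held 0 members among 36 tested, with a median log2 change of -0.17 and 7 genes above 0. Col4a6, which encodes a collagen chain of basement membranes, had 5.62 and 5.76 CPM in KO clone 2, 16.2 and 14.9 in m2 and 12.5 and 12.2 in m3. Its neighbour on the X chromosome, Col4a5, which encodes another chain of this collagen, was higher by 0.87 and 0.83 on the log2 scale. Pdgfd, a growth factor of the platelet-derived family, had 4.19 and 5.38 CPM in KO clone 2, 12.6 and 12.3 in m2 and 12 and 9.17 in m3. Olfml2b, a secreted protein with an olfactomedin domain, had 1.43 and 1.44 CPM in KO clone 2, 3.59 and 3.65 in m2 and 6.17 and 7.12 in m3. The rescue libraries of these genes all lay above KO clone 2, and for Olfml2b m3 also lay above m2. Porcn, the acyltransferase that lipidates Wnt proteins, was higher by 1.64 (SE 0.23) and 1.06 (SE 0.24).

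Klhl13, an adaptor of a cullin ligase counted in a row joined with the pseudogene Gm14523, had 1.43 and 1.36 CPM in KO clone 2, 6.35 and 5.72 in m2 and 14.6 and 13.3 in m3. The libraries of m2 and m3 did not overlap, and the control libraries held 0 fragments of this row. Hecw1, a ubiquitin ligase, had 6.12 and 5.91 CPM in KO clone 2 against 16.2 to 20.2 in the rescue libraries. Fbxl7, an F-box protein, had 18.2 and 17.5 CPM in KO clone 2 against 30.3 to 49.5. Atg10, a conjugating enzyme of autophagy, had 4.70 and 5.00 CPM against 10.3 to 14.4, and Immp2l, a mitochondrial peptidase, had 15.9 and 16.2 CPM against 31.5 to 52.9. None of these 5 genes overlapped between KO clone 2 and the rescue clones.

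The remaining genes with the largest increases were of mixed kind. Phf21b, a protein with a PHD finger, had 1.17 and 1.36 CPM in KO clone 2, 4.14 and 5.88 in m2 and 4.43 and 3.59 in m3. Fyb2 had 4.28 and 5.38 CPM in KO clone 2 against 9.93 to 12.8 in the rescue libraries. Neat1, the long RNA that builds paraspeckles, is counted in a row joined with 3 predicted RNAs, and that row had 87.7 and 76.8 CPM in KO clone 2 against 184 and 207 in m2 and 219 and 165 in m3. Across the 46 genes the median log2 change was 1.15, with single values from 0.61 to 3.31.

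Of the 12 members that were lower in the rescue clones, 8 had both rescue clones below every other line of the study. That count was not made over all genes tested, and these members were chosen for low values in the rescue clones. Zfp462, a zinc finger protein, had 5.03 and 5.31 CPM in KO clone 2 and 0.873 to 1.07 in the rescue libraries. Wnt7a, a Wnt ligand, had 4.95 and 4.78 CPM in KO clone 2, 0.828 and 0.715 in m2 and 2.35 and 1.54 in m3, so its change was larger in m2. Dpp6, an auxiliary subunit of potassium channels, was the member with the fewest fragments, at 1.51 and 1.36 CPM in KO clone 2 and at most 0.331 CPM in the rescue libraries. The controls averaged 0.0326 CPM of Dpp6, so for this gene KO clone 2 stood above all other lines.

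Smaller decreases fell on metabolic, cell cycle and adhesion genes. Fasn, which encodes fatty acid synthase, had 352 and 295 CPM in KO clone 2, 191 and 207 in m2 and 190 and 222 in m3. Cdk6, a kinase of the G1 phase, had 26.4 and 27.5 CPM in KO clone 2, 17.5 and 14.6 in m2 and 14.9 and 15.4 in m3. Sod3, the extracellular superoxide dismutase, had 19.5 and 16.8 CPM against 5.56 to 9.30. These 3 genes were lower in every rescue library. Dab2, a clathrin adaptor, had 8.97 and 9.25 CPM against 3.53 to 4.42, Nectin1, an adhesion molecule, had 25.5 and 23.5 CPM against 15.2 to 15.8, and Kifc3, a kinesin, had 16.4 and 17.1 CPM against 9.77 to 11.9. The median log2 change of the 12 genes was -1.21.

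**Figure D3:**
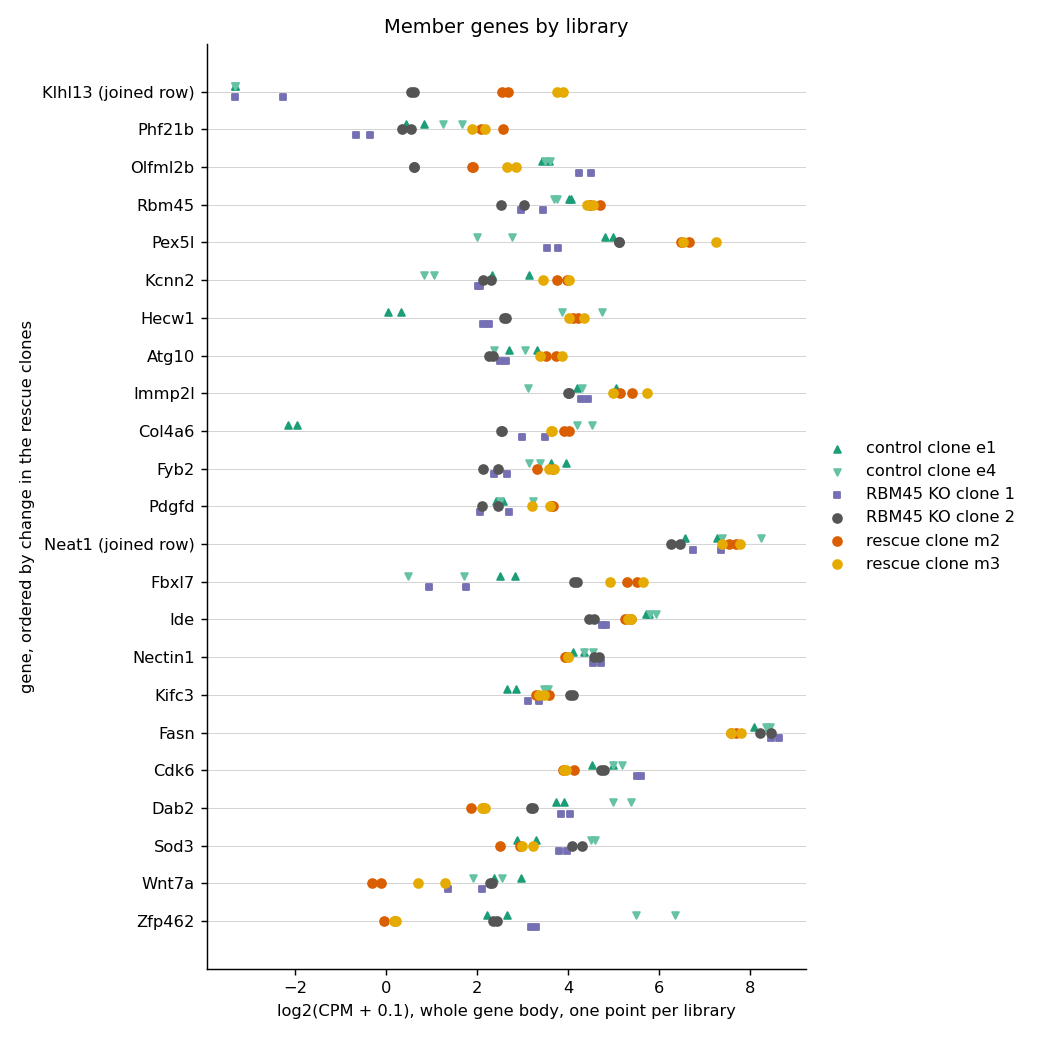
Each point is 1 library, on a scale of log2(CPM + 0.1) over the whole gene body, for Rbm45, Ide and other members with large changes; circles are KO clone 2 and the rescue clones, triangles the control clones and squares KO clone 1. For each gene the circles of the rescue clones lie to one side of KO clone 2, which was a condition for choosing all but Rbm45 and Ide. For Ide the rescue clones (40.3 CPM) lie between KO clone 2 (22.7 CPM) and the controls (55.9 CPM).

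The count of members rested on single libraries. Both rescue clones were compared with the same 2 libraries of KO clone 2, so an error in those enters both comparisons. Without replicate 1 or 2 of KO clone 2 the number of genes called in both comparisons was 6 and 9 in place of 58. It was 22 without replicate 1 of m2, 26 without replicate 2 of m2 and 10 without replicate 1 of m3. KO clone 2 against m2 alone gave 224 called genes and against m3 alone 288, so the 58 members were 25.9% and 20.1% of these, and 6 further genes were called in opposite directions. Klhl13 and Pex5l were called in all 15 other settings tried, Rbm45 in 14 and Ide in 13. The members nearest to the threshold were Plcl1 (log2 change 0.98 in m2 and 1.00 in m3) and Wwox (1.01 and 1.09), both with 0.0488 as the larger of their 2 adjusted p from edgeR. Just outside were Clmp (-2.38 and -2.75, larger adjusted p 0.0504) and Ptprt (1.38 and 1.76, larger adjusted p 0.0513).

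The members that were higher were mostly very long genes. Gene bodies were counted with their introns, and 41 of the 58 members, 35 of them higher and 6 lower, span more than 100 kb, against 2055 of all 16223 genes tested. The share of tested genes that were members was 0.0541% up to 10 kb, 0.110% from 10 to 30 kb, 0.222% from 30 to 100 kb, 1.47% from 100 to 300 kb and 4.0% above 300 kb. Genes of these lengths differed as a whole: the median log2 change of whole gene bodies in the rescue clones was -0.11 up to 10 kb and 0.40 above 300 kb, while that of all genes tested was -0.00025. For exon bins added up per gene the median log2 ratio of CPM, with a pseudocount of 0.1 CPM, was -0.12 up to 10 kb and -0.04 above 300 kb. For introns it was 0.15 and 0.61. When the exon and intron tables were each scaled by their own totals, the exon medians were -0.03 and 0.04 and the intron medians -0.22 and 0.22, so the sign for introns of short genes depended on the scaling.

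**Figure D4:**
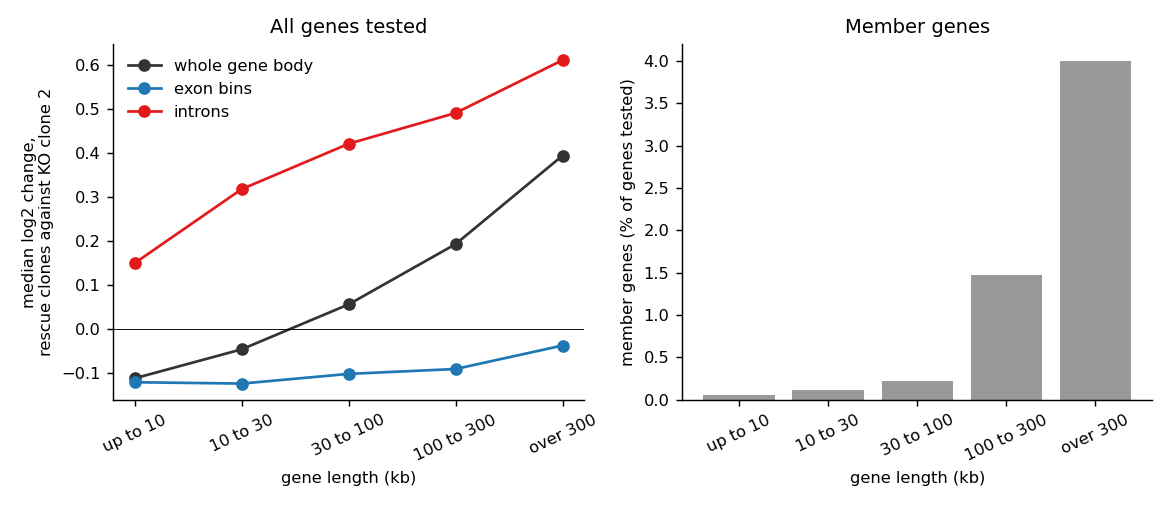
Left, the median log2 change of the rescue clones against KO clone 2 by gene length in kb, over all genes tested, for whole gene bodies, for exon bins and for introns; right, the percentage of tested genes that were members, by gene length. The gene body median climbs from -0.11 to 0.40 with length and the exon median from -0.12 to -0.04, and the share of members climbs from 0.0541% to 4.0%. Exon and intron values use the scaling of the gene table; scaled by their own totals, the exon medians ran from -0.03 to 0.04 and the intron medians from -0.22 to 0.22.

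Within the members, exons and introns differed in a way that depended on the scaling. On the scaling of the gene table, 38 of the 42 higher members with both measures had a larger log2 ratio in introns than in exon bins, with medians over the higher members of 1.14 for introns and 0.62 for exon bins. Over all genes tested these medians were 0.38 and -0.11. With each table scaled by its own totals, 21 of the 42 had the larger change in introns, with medians of 0.77 for introns and 0.71 for exon bins. Intron rows can hold exons of other transcripts, and 182 of the 698 intron rows of these 42 genes held an exon bin of the same gene. Without such rows 35 of the 42 had the larger ratio in introns on the scaling of the gene table. Plcl1, a phospholipase-like protein, had 6.97 CPM of exon bins in the rescue clones and 7.20 in KO clone 2, but 56.8 and 25.7 CPM of introns. In 14 of the 46 higher members, Fbxl7, Pdgfd and Slc8a1 among them, the exon bins had a log2 ratio under 0.5. Rbm45 had a larger ratio in exon bins, 2.02 against 0.63 in introns. Ide had 0.92 in exon bins and, over all its intron rows, -0.10, which became 1.12 without the row that holds the alternative exon.

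When exon bins alone were added up and fitted, 11 of the 56 members that could be fitted were called in the same direction in both rescue clones. No other gene was called in this fit, which covered 14857 of the genes tested. It used the same 6 libraries that chose the members, so it is a description and no test. Among the 11 were Rbm45, Ide, Klhl13, Pex5l, Porcn and the row of Neat1, which were higher. Cdk6, Dab2, Sod3 and Zfp462, also among the 11, were lower. In 54 of the 56 both clones had the same sign as in the gene table; Fbxl7 and Plcl1 had exon changes of -0.06 and -0.02 in m3. The libraries themselves differed in intron content: after leaving out the 12 most abundant genes, intron rows (which can hold exons of other transcripts) held 16.9% of exon and intron fragments in both libraries of KO clone 2, 20.9% and 22.3% in m2 and 25.7% and 20.4% in m3. In the controls this share ran from 16.4% to 22.6%. The part of intron content and of gene length in the 58 calls was not tested.

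**Figure D5:**
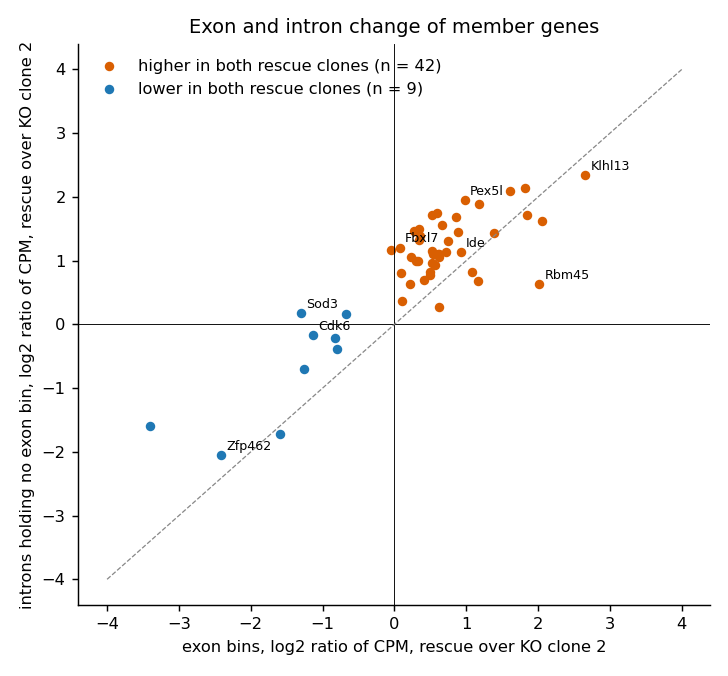
Each point is 1 of the 51 members with both measures, 42 higher and 9 lower in the rescue clones; the axes are log2 ratios of CPM (pseudocount 0.1) of the rescue clones over KO clone 2, for exon bins and for intron rows that hold no exon bin, on the scaling of the gene table, and the dashed line marks equal ratios. Of the 42 higher members 35 lie above the line, Ide among them, while Rbm45 lies below it; with each table scaled by its own totals, and all intron rows used, 21 of the 42 had the larger change in introns.

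The position of the members on the genome and strand adds 2 facts. The X chromosome holds 7 of the 58 members, or 12.1%, and 2.88% of the genes tested. Klhl13, Porcn, Col4a6, Aff2, Col4a5 and Prrg1 were the 6 of them that were higher. For 21 members a gene with a mean of at least 1 CPM lies on the opposite strand, and since the kit does not mark strand their fragments cannot be told apart. The predicted antisense genes 4930419G24Rik and Gm37459 overlap Pex5l, and Gm49267 overlaps Fbxl7, and each pair was higher together. Gm28294, which was lower, overlaps Ptprn.

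Levels in the other lines varied widely for the same genes. In 23 of the 58 members both control clones lay on the rescue side of KO clone 2, in 18 only 1 control clone did and in 17 neither did. KO clone 2 was the outermost of the 8 lines opposite to the rescue clones in 13 members, among them Rbm45, Ide, Col4a5, Ank2 and the row of Neat1. The rescue clones were the 2 outermost lines in 31 members, and in 11 of these KO clone 2 came next, as for Pex5l and Zfp462. These counts were not made over all genes tested, and the members were chosen for a difference between the rescue clones and KO clone 2. The 2 control clones, which carry no RBM45 edit, differed by more than 2-fold in 21 members, or 36.2%, while 6.03% of all genes tested did (ratios of mean CPM with a pseudocount of 0.5 CPM). Col4a6 averaged 0.141 CPM in e1 and 20.6 in e4, Hecw1 1.04 and 20.5, and Zfp462 5.36 and 63.2, so these members also differed between clones of 1 genotype.

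KO clone 1 against the control clones compares none of the 6 libraries on which the members were chosen. The spread between replicates was estimated over all 16 libraries for both comparisons, so this test of the members is not fully independent. Of the 58 members 5 passed edgeR's quasi-likelihood test against both controls with the same sign, or 8.62%, where 0.382% of all genes did. Ide fell, with 26.6 and 28.5 CPM in KO clone 1, 54.6 and 52.2 in e1 and 55.8 and 60.9 in e4, a log2 change of -0.96 (SE 0.12, adjusted p 0.00029) against e1 and -1.08 (SE 0.12, adjusted p 6.95e-06) against e4. Syndig1 fell by 1.58 and 1.32 on the log2 scale (SE 0.243 and 0.260, edgeR adjusted p 0.00209 and 0.00155). Cdk6 rose by 0.79 and 0.48 (SE 0.155 and 0.155, edgeR adjusted p 0.0173 and 0.0387), and the predicted antisense gene Gm28294 rose by 1.09 and 1.47 (SE 0.245 and 0.265, edgeR adjusted p 0.0454 and 0.00075). These 4 genes moved in the direction opposite to that in the rescue clones. Of the 4, only Ide differed from both controls the same way in KO clone 2, at 22.7 CPM against 55.9. Syndig1 in KO clone 2 lay above every control library, whose mean was 3.68 CPM. Cdk6 (26.4 and 27.5 CPM) and Gm28294 (2.77 and 2.43 CPM) in KO clone 2 averaged below the control means of 30.5 and 2.89 CPM. Whether the rescue reversed a change made by the knockout was not tested. Olfml2b rose in KO clone 1 by 0.88 and 0.84 (SE 0.19 and 0.19, edgeR adjusted p 0.0354 and 0.00527), the direction it also had in the rescue clones. Rbm45 itself passed against e1 (-0.84, SE 0.18, edgeR adjusted p 0.0361) and not against e4 (-0.52, SE 0.19, adjusted p 0.0627).

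The count of 5 also rested on single libraries. It was 1 without replicate 2 of KO clone 1, 3 without its replicate 1, 2 without replicate 1 of e1 and 3 without replicate 2 of e1. A further 4 members, Pex5l, Hecw1, Gm37459 and Col4a6, passed against both controls with opposite signs, as did 0.0863% of all genes tested. Of genes over 100 kb, 0.876% were called in this comparison.

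The Ide exon bin was tested in the same way. Relative to the rest of Ide it was higher in KO clone 1 than in e1 by 5.10 on the log2 scale and than in e4 by 5.05, with adjusted p of 1.33e-38 and 5.65e-35 from diffSpliceDGE of edgeR. By the same rule 0.00294% of all exon bins tested, 3 bins, were called, 1 of them this bin. The bin was called in every setting tried for this comparison, including without each of the 6 libraries. In METTL3 KO against WT the bin was higher by 1.66 and did not pass (diffSpliceDGE of edgeR, p 0.0168, adjusted p 1.0), with 8 and 14 fragments in METTL3 KO against 3 and 1 in WT. There 0.0137% of bins were called, 14 in all.

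METTL3, the enzyme that methylates adenosine in messenger RNA, was knocked out in 1 further clone. The members were also tested in that clone against WT, again with the spread estimated over all 16 libraries. Of the 58 members 33 passed edgeR's quasi-likelihood test, or 56.9%, where 22.9% of all genes did. Of these 20 were higher (11.2% of all genes) and 13 lower (11.8% of all genes). Mtus1, a microtubule-associated protein, rose by 2.21 on the log2 scale (SE 0.17, edgeR adjusted p 2.77e-07), Prrg1, a membrane protein, by 1.56 (SE 0.14, adjusted p 1.18e-06) and Syndig1 by 2.03 (SE 0.19, adjusted p 2.62e-06). Mgmt, a DNA repair protein, rose by 2.17, Slc9a9, a sodium-proton exchanger, by 1.68 and Pex5l by 2.02 (SE 0.22, 0.19 and 0.24, edgeR adjusted p 1.43e-05, 1.7e-05 and 2.9e-05). Col4a6 fell by 3.44 (SE 0.30, edgeR adjusted p 1.16e-06) and Olfml2b fell by 3.08 (SE 0.31, adjusted p 5.3e-06).

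Gene length and intron content moved with this comparison as well. Of genes over 100 kb 34.9% were called and their median log2 change was 0.28. Intron rows held 23.3% and 24.3% of fragments in METTL3 KO and 16.5% and 18.2% in WT. Their part in the calls was not tested. Ide (log2 change 0.18, SE 0.12, edgeR adjusted p 0.284) and Rbm45 (-0.24, SE 0.19, adjusted p 0.371) did not pass in METTL3 KO against WT.

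The members were also set against 30 lists of genes by pathway or cell type. In 6 lists there was a member, in 24 there was none, and 49 of the 58 members were in no list. Rbm45 was the only member among 10 tested genes of RBM45 and its known partners, whose median log2 change was -0.04, and Ide the only one among 10 tested peptidases related to it. Synapse and channel genes held 2 members, Syndig1 among them, of 24 tested, with a median log2 change of 0.19. Very long genes held Wwox, Immp2l and Atg10 among 27 tested, with a median of 0.52 over gene bodies and 0.07 over exon bins. Nuclear long non-coding RNAs held the row of Neat1 among 11 tested, and cell cycle inhibitors and G1 cyclins held Cdk6 among 17.

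Lists without a member had medians near that of all genes, -0.00025, or to either side of it. The 20 tested genes of the adenosine methylation machinery had a median log2 change of -0.01, the 31 splicing regulators -0.02 and the 19 cleavage and polyadenylation factors 0.04. Cholesterol synthesis genes had a median of -0.38, with 0 of 23 above 0, and 2 of them were called lower in m2 and 0 in m3. Interferon response genes had a median of 0.47, with 19 of 21 above 0, and 2 were called higher in m2 and 0 in m3. Replication-dependent histones had a median of -0.40, with 0 of 33 above 0, and 1 was called lower in m3. Structural RNAs had a median of -0.53, with 1 of 11 above 0, and 2 were called lower in m3.

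Markers of the labelled cell type were partly absent. Of 22 neuronal genes 7, Nefl, Nefm, Dcx, Stmn2, Ina, Neurod2 and Calb1, had 0 fragments in the 6 libraries, and Rbfox3 was at 0 in KO clone 2 and averaged 0.0138 CPM in the rescue clones. Map2 averaged 48.2 CPM in KO clone 2 and 74.8 ± 7.53 in the rescue clones, and Ncam1 146 and 192 ± 9.29 (SD, n = 4). L1cam, Uchl1 and Mapt had lower averages in the rescue clones, 7.46 against 9.49 CPM, 1.5 against 2.19 and 0.512 against 0.681. Of the 12 neuronal genes tested 6 were above 0, with a median log2 change of 0.02 over gene bodies and -0.17 over exon bins. The summed level of the 22 genes was 213 to 238 CPM in KO clone 2 and 279 to 307 in the rescue clones, without overlap, most of it from Map2 and Ncam1, and its part in the results was not tested. The summed levels of astrocyte, endothelial and pericyte genes overlapped between the 2 groups, with Aqp4, Cdh5 and Cldn5 at 0. Oligodendrocyte lineage genes summed to 95.5 to 95.9 CPM in KO clone 2 and 69.9 to 79.2 in the rescue clones, mostly Cspg4, with Mag at 0. Microglia and macrophage genes summed to 48.1 to 49.0 and 42.4 to 44.7 CPM, mostly Cx3cr1, with P2ry12 and Ptprc at 0.

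The 6 libraries compared held 11810160 to 14776146 fragments in the gene table, and those of the whole series 7193908 to 18751324. The 12 most abundant genes took 63.9% and 65.8% of the fragments in KO clone 2 and 53.3% to 61.6% in the rescue clones, so a smaller share of fragments was left for the other genes in KO clone 2.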

How the data were processed

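The authors deposited whole-number counts of fragments per gene, exon bin and intron, not estimated counts, made with featureCounts 1.6.3 per the file headers. Per the same headers, a fragment was counted in every feature that held at least a fraction of 0.1 of it, genes were counted over their whole bodies and strand was set to 1, although the kit in the labels' protocols is non-directional. The submitters' processing notes name HISAT2 2.1.0 and mm10.

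Counts of 16 libraries were fitted with edgeR 4.0.16 (TMM scaling, filterByExpr, 8 line groups, quasi-likelihood test), and diffSpliceDGE was run on exon bins whose mean count reached 10. P-values were Benjamini-Hochberg adjusted (threshold 0.05). CPM used the TMM-scaled gene totals. On simulated data, 60.3% of genes changed 2-fold in both rescue clones were recovered. For exon bins this share was 11.1% at 2-fold and 64.2% at 4-fold. Genes named in full were Rbm45, Ide and up to 15 members in each direction with the largest changes (by the smaller of the 2 clones' log2 changes, with at least 2 CPM on the higher side, predicted genes left out), up to 8 with the smallest p in each tested comparison, and list members; further members were named after their values were seen, and some members are not reported here. The members and gene lists were chosen with earlier results of these data known. With 2 libraries per line and no statement of separate cultures, p-values measure the spread between libraries only. Alternatives were DESeq2, RLE scaling, other filters, a replicate block, exon or intron sums and leaving out each library.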

Additional observations from a re-analysis of the deposited data

How the results depend on the processing

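The number of genes called in both rescue clones against KO clone 2 was 58, 71 with DESeq2, 51 with RLE scaling and 51 without the most abundant genes. It was 234 with no filter on low counts, 338 when only the 6 libraries were fitted, 11 with exon bins added up, 34 with introns added up and 16 at an adjusted p under 0.01. Leaving out 1 library gave 6 to 42. Ide reversed with introns added up, at -0.48 on the log2 scale, a setting in which the alternative Ide exon is counted, since it lies within an intron row. After the data were seen, 2 further settings were added: without that row the Ide intron ratio went from -0.10 to 1.12, and the 38 higher members with the larger ratio in introns became 21 when each table was scaled by its own totals and 35 without intron rows that hold an exon bin. Replicate numbers were not used to pair the libraries in the main fit. Over 28 pairs of lines the correlation of deviations ran from -0.27 to 0.437, with a median of 0.0631, and 12 pairs were above 0.1. With a replicate block the count was 79, in KO clone 1 it was 6 and in METTL3 KO 35. The 5 members called in KO clone 1 against the controls became 2 with exon bins added up and 1 to 5 when 1 library was left out. The 33 in METTL3 KO against WT ranged from 22 to 35, and from 24 to 29 with 1 library left out. The Ide exon bin was called in every setting for the rescue clones and KO clone 1, and in none for METTL3 KO. Beyond the settings' own construction, the causes of these shifts were not tested. In simulated data, 6.35% of genes changed 1.5-fold in both rescue clones were recovered, so small changes can be missed by this rule. The simulation gave all lines the same mean for the unchanged genes and did not vary depth.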
